A study of Mus musculus with 4 samples.

Results

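The genes described here are 38 genes of adipocyte differentiation and lipid storage, out of 37310 genes to which counts could be assigned. They were chosen by name, but with earlier results of these data known. They comprise 7 transcriptional regulators, 4 adipokines, 6 genes of fatty acid and glucose uptake and carriage, 5 lipid droplet coat genes, 3 lipases, 6 genes of triglyceride synthesis and 7 of fatty acid synthesis. Their transcripts were compared between mature mice of 3 months and elderly mice of 24 months. All mice were wild type C57Bl/6, and the methods of the study give them as male. Each age had 2 libraries. The methods say that RNA of 3 or 4 mice per group was pooled, the sample titles number the libraries as single mice, and whether an individual library is a pool is therefore not settled. The p-values measure no more than the spread between these libraries, which the fit estimates for each gene partly from other genes. An exact test run as an alternative sets this spread to a fixed value instead. The methods describe cells sorted from bone marrow as negative for lineage markers and positive for the leptin receptor LEPR, a skeletal stem and progenitor cell (SSPC) population written Lin-LEPR+, whereas the sample labels name whole bone marrow.

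Adipocyte differentiation is driven by a cascade in which CEBPB and CEBPD act early and PPARG and CEBPA then hold the program on. Fat cells import fatty acids or make them from acetyl-CoA, join them to glycerol as triglyceride, and keep the product in droplets coated by perilipins, from which lipases release it. In mouse marrow, LEPR+ stromal cells are a source of marrow adipocytes, and cells of this kind are known to transcribe some genes of the fat program without holding a droplet. Marrow fat expands with age, and the comparison asks which of these genes differ between the ages in these libraries.

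The libraries held 10472117 to 15650518 counts. Levels are given as CPM, counts per 1000000 counts of the library, corrected for composition by TMM factors, and 3 counts in a library correspond to 0.195 to 0.27 CPM. The counting credits a read only to exon bases that no other annotated transcript shares, and a median of 69.6% of the longest transcript was left to count among the 38 genes. For 13 of them it was under 30%, and low counts of such genes were not read as low expression. In a list of 12 LEPR+ stromal markers the summed level was 47160 and 46372 CPM in mature and 31318 and 41765 CPM in elderly libraries, with no marker called. Summed neutrophil markers (10 genes) were at 1211 to 2117 CPM in mature and 4406 to 4511 CPM in elderly libraries, with 6 called higher, and erythroid markers (8 genes measured) at 84.7 to 219 and 646 to 739 CPM, with 3 called higher. Hba-a1 and Camp, which belong to these lists, were not detected. Summed B-lineage markers (8 genes) were at 695 to 820 CPM in mature and 1250 to 1359 CPM in elderly libraries. Of these, Ighm was called higher, Ebf1 was lower in both elderly libraries but not called, and Cd79b was not detected. Summed osteoblast markers (7 genes) were at 6419 to 7046 and 2149 to 4017 CPM. Most of that sum was Ibsp, which was called lower, whereas Col1a1 was called higher. Pecam1 and Ptprc, which encode the CD31 and CD45 that the sort selects against, were at 6.64 to 25.2 and 0.0862 to 1.08 CPM, the latter with 2.61% of its longest transcript countable. The part of these shifts in the results that follow was not tested. In RNA from a mixture of cells, fewer cells of a type and less RNA per cell cannot be told apart.

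**Figure D1:**
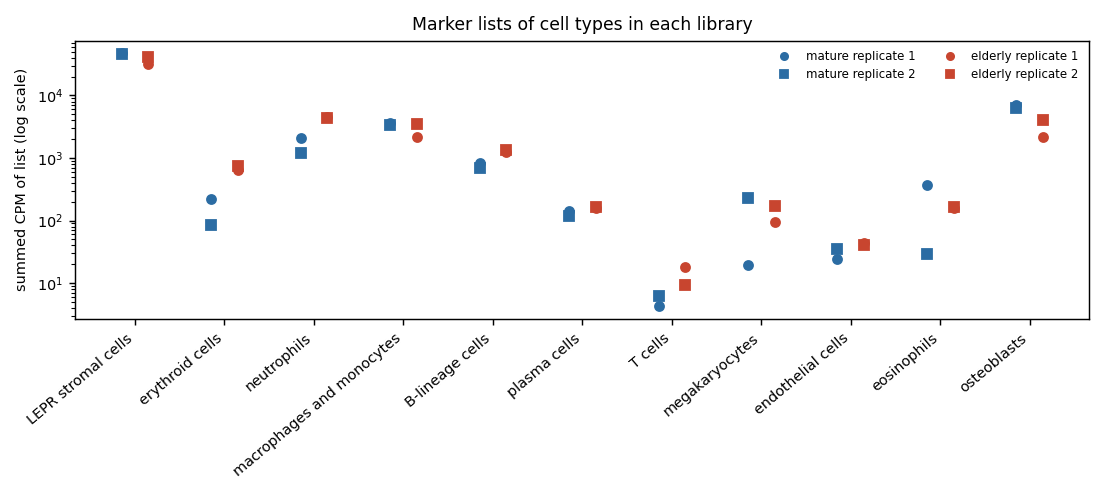
Summed CPM of each marker list on a log scale, 1 point per library, with circles for replicate 1 and squares for replicate 2 of each age. Stromal markers reach 31318 CPM or more in each library. The neutrophil, erythroid and B-lineage sums are higher in both elderly than in both mature libraries, and the osteoblast sum is lower in both. The macrophage sum plotted includes Vcam1, which is also a stromal marker.

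Of the 38 genes, 33 had more than 2 counts over the 4 libraries and were tested with edgeR's quasi-likelihood test, adjusted over all 22214 genes tested. Only Dgat2, which encodes an enzyme of the last step of triglyceride synthesis, passed an adjusted p under 0.05, and it was higher in elderly libraries. Over all genes, 1.94% were called higher and 0.423% lower. None of the 38 genes was called lower, and DESeq2 and edgeR's exact test also called 0 lower. At an unadjusted p under 0.05, 7 genes had a positive and 1 a negative log2 fold change, compared with 10.9% of all genes tested in either direction. For 14 of the 33 genes both elderly values exceeded both mature values, where the share over all genes was 22%, and for 4 both were below, where it was 18.9%. The median log2 fold change of the 33 genes was 0.25, and that of all genes tested was -0.0059. With the libraries scaled by the LEPR+ stromal markers instead, the median of all genes moved to 0.41 and that of the 33 genes to 0.66.

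**Figure D2:**
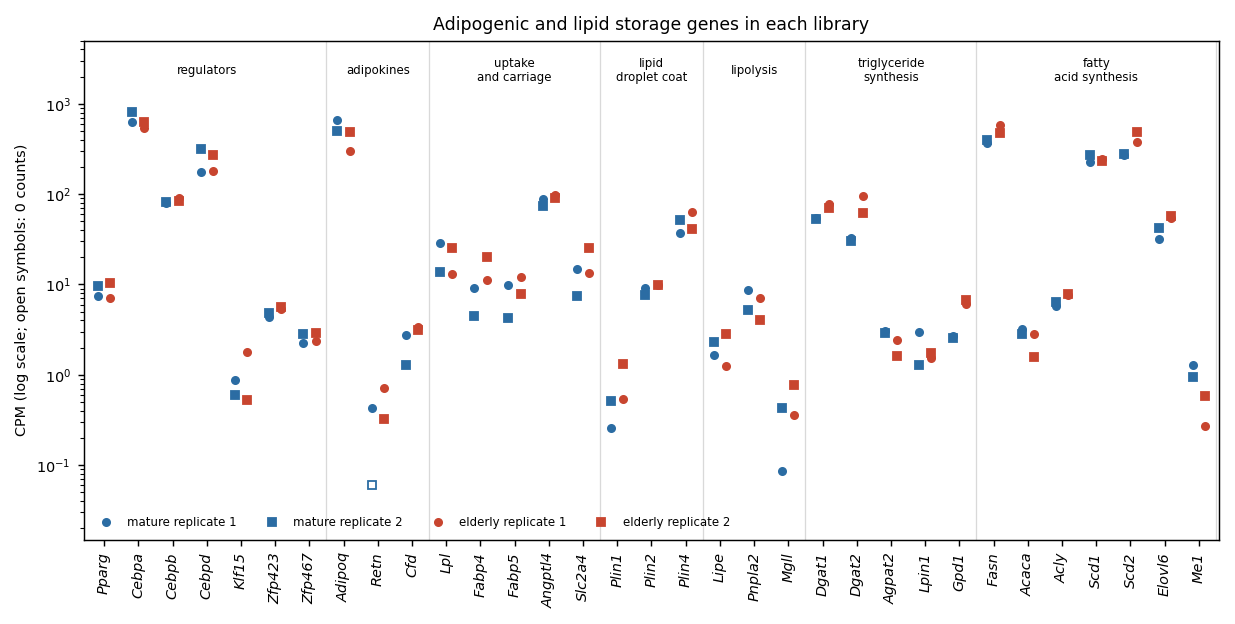
CPM of the 33 tested genes in each library on a log scale, grouped by role, with blue for mature and red for elderly libraries. The levels run from 0 counts for Retn in mature replicate 2 (open symbol) to 814 CPM for Cebpa in mature replicate 2, and the points of the ages overlap for 15 genes.

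The counts of the regulators spanned a wide range. Cebpa, the transcription factor that maintains the adipocyte state, had the highest level of the group per kilobase of countable exon, at 248 CPM per kb. It was counted at 630.2 and 814 CPM in mature and at 537 and 633 CPM in elderly libraries. The ages overlapped, and the log2 fold change was -0.30 (SE 0.20, adjusted p = 0.665 by edgeR), which turned to 0.10 with scaling by stromal markers. Pparg, the nuclear receptor on which adipocyte differentiation depends, was at 7.53 and 9.65 CPM in mature and 7.12 and 10.3 CPM in elderly libraries, again with overlap. Its log2 fold change was 0.02 (SE 0.33, adjusted p = 0.989 by edgeR), and ranged from -0.27 to 0.29 with 1 library left out, and only 18.4% of its longest transcript could be counted. The early factors Cebpb and Cebpd were at 79.3 to 89.6 and 174 to 315 CPM over the 4 libraries. Cebpb was slightly above the mature values in both elderly libraries (log2 fold change 0.11, SE 0.19), whereas Cebpd overlapped and is listed as a pseudogene in the annotation used. Zfp423, a factor that commits precursors to the fat lineage, was at 4.33 and 4.83 CPM in mature and 5.32 and 5.60 CPM in elderly libraries. Zfp467, which promotes fat over bone differentiation, and Klf15, an activator of glucose uptake genes, stayed under 3 CPM in every library with overlap between the ages. Only 22.4% of the longest transcript could be counted for Zfp423, 11.2% for Zfp467 and 12.9% for Klf15, so their low counts are not read as low expression. None of the 7 regulators passed the test.

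The files resolve Pparg into its long and its short protein form. The coding exons of Pparg-201 give 505 residues, the length of the fat-enriched form PPARG2, and those of Pparg-202 give 475 residues, the length of PPARG1. Pparg-202 had 74 and 95 counts in mature and 70 and 148 counts in elderly libraries over 215 countable bases. Pparg-201 had 13 and 17 counts in mature and 9 and 10 counts in elderly libraries over 127 countable bases. Both elderly values of the long form were below both mature values, and those of the short form overlapped. Neither transcript passed the test among 42351 transcripts (adjusted p = 0.825 and 0.959 by edgeR's quasi-likelihood test). Over all transcripts 1.66% were called, and of 81 tested transcripts of the 38 genes only Dgat2-201 was (log2 fold change 1.36, SE 0.26, adjusted p = 0.00501).

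The adipokines divided into Adipoq and the rest. Adipoq encodes adiponectin, a hormone that mature fat cells secrete in quantity, and at 521 CPM per kb of countable exon it had the highest level of the 38 genes. It was counted at 656 and 496 CPM in mature and at 304 and 485 CPM in elderly libraries. Both elderly values were below both mature values, although the higher elderly and the lower mature value lay close together. The log2 fold change was -0.55 (SE 0.24, unadjusted p = 0.0422, adjusted p = 0.417 by edgeR), so that the difference did not pass the test. It was -0.22 without elderly replicate 1, -0.92 without elderly replicate 2 and -0.32 without mature replicate 1. Elderly replicate 1 also had the lowest sum of stromal markers. Cfd, which encodes the complement factor adipsin, was at 2.77 and 1.29 CPM in mature and 3.43 and 3.12 CPM in elderly libraries (log2 fold change 0.69, SE 0.50, adjusted p = 0.688 by edgeR). The difference was 0.21 without mature replicate 2 and 1.33 without mature replicate 1. Retn, the gene of resistin, had at most 8 counts in any library. Lep, the gene of leptin, had 0 counts in all 4 libraries although 3029 bases of it could be counted, which allows a level of up to 0.195 to 0.27 CPM per library. These limits cover counting error only.

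The promoter of Adipoq is shown because the gene had the highest level per length of the 38. The line holds the 250 bases before its start at chr16:23146286-23146535 (RefSeq, GRCm38.p6, plus strand), with matches to CCAAT in capitals. They begin at positions -34 and -27 on the minus strand and at -7 on the plus strand, counted from the start.
Adipoq: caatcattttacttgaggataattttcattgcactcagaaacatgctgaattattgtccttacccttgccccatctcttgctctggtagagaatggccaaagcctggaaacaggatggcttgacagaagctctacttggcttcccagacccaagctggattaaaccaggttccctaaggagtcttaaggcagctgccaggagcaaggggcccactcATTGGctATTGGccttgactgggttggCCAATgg

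Among the genes of uptake and carriage, Angptl4, an inhibitor of lipoprotein lipase, had the highest level per length (61.5 CPM per kb of countable exon). It was at 89.1 and 73.4 CPM in mature and 98.1 and 90.5 CPM in elderly libraries, narrowly apart (log2 fold change 0.21, SE 0.20, adjusted p = 0.774 by edgeR). Fabp4, the fatty acid carrier of fat cells, also known from endothelial cells and macrophages, was at 9.26 and 4.48 CPM in mature and 11.1 and 20.3 CPM in elderly libraries. Both elderly libraries were above both mature libraries, but the libraries of each age were themselves far apart, and the log2 fold change of 1.20 (SE 0.40, unadjusted p = 0.0107, adjusted p = 0.205 by edgeR) did not pass. The log2 fold change was 0.69 without elderly replicate 2, 0.75 without mature replicate 2 and 1.82 without mature replicate 1, the last of which was called (adjusted p = 0.0433 by edgeR). Summed endothelial markers (9 genes) were at 24.3 and 35.6 CPM in mature and 43.8 and 41.2 CPM in elderly libraries, with Flt4 called higher and Tek and Tie1 not detected. Pecam1 of this list overlapped between the ages, at 13.5 and 25.2 CPM in mature and 15.1 and 6.64 CPM in elderly libraries (log2 fold change -0.84). Macrophage markers without Vcam1, which the stromal list also holds, summed over 9 genes to 102 and 78.0 CPM in mature and 189.8 and 193 CPM in elderly libraries, with 4 of them called higher, C1qa and C1qb included. Cd68 of the same list was lower in both elderly libraries (10.6 and 17.4 CPM in mature, 9.74 and 8.46 CPM in elderly), and Csf1r overlapped. With Vcam1 the sums were 3610.3 and 3363 CPM in mature and 2149.6 and 3500.2 CPM in elderly libraries. The part of endothelial cells and macrophages in the level of Fabp4 was not tested. Slc2a4, the insulin-responsive glucose transporter GLUT4, was at 14.9 and 7.50 CPM in mature and 13.3 and 25.1 CPM in elderly libraries, which overlapped. Its log2 fold change of 0.78 (SE 0.38, adjusted p = 0.497 by edgeR) was 0.25 without elderly replicate 2 and 0.35 without mature replicate 2. Lpl, which releases fatty acids from lipoproteins, and Fabp5, a second carrier, overlapped between the ages at 13.0 to 29.0 and 4.22 to 12.1 CPM. Cd36, the fatty acid translocase, had 0 counts in all 4 libraries, but only 474 bases (13.3% of its longest transcript) could be counted.

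Of the genes of the droplet surface, Plin4 had the highest level per length. Plin4, a perilipin of small droplets, was at 37.2 and 51.7 CPM in mature and 63.5 and 41.1 CPM in elderly libraries. The ages overlapped, and the log2 fold change of 0.23 (SE 0.26, adjusted p = 0.839 by edgeR) turned to -0.085 without elderly replicate 1. Plin1, the perilipin that marks mature fat cells, had 3 and 6 counts in mature and 6 and 20 counts in elderly libraries over 1916 countable bases. At 0.342 CPM per kb of countable exon, Plin1 lay far below Plin4 (8.42 CPM per kb). Plin2, the coat protein of most other cells, was at 9.17 and 7.59 CPM in mature and 9.92 and 9.96 CPM in elderly libraries (log2 fold change 0.25, SE 0.30). Cidec and Cidea, which enlarge droplets, had at most 1 count in any library. Cidea was almost fully countable (98.3% of its transcript), whereas only 8.9% of the longest Cidec transcript could be counted. Of 6 genes by which adipocytes were checked, Adipoq was counted at 304 CPM or more in each library, Plin1, Retn and Cfd at or under 3.43 CPM, and Lep was not detected. The sixth, Cidec, could hardly be counted.

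The 3 lipases showed no difference that passed the test. Pnpla2, which starts triglyceride breakdown, was at 8.74 and 5.17 CPM in mature and 7.12 and 4.03 CPM in elderly libraries. Its log2 fold change was -0.33 (SE 0.40, adjusted p = 0.860 by edgeR) and turned to 0.13 with scaling by stromal markers. Lipe, the hormone-sensitive lipase, and Mgll, the monoglyceride lipase, were under 3 CPM in every library and overlapped between the ages, with 21.4% and 18.1% of the longest transcript countable.

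Triglyceride synthesis held the called gene. Dgat2 (ENSMUSG00000030747, chr7:106302173-106331223 in mm9, minus strand) has 1 annotated transcript, all of whose exon bases could be counted. It had 374 and 351 counts in mature and 1046 and 939 counts in elderly libraries, which are 32.4 and 30.3 CPM and 94.3 and 61.1 CPM. The mature libraries were close together, and both elderly libraries lay well above them but differed from each other. The means were 31.3 ± 1.49 CPM (SD, n = 2) and 77.7 ± 23.5 CPM (SD, n = 2), a 2.48-fold difference (log2 fold change 1.31, SE 0.24, adjusted p = 0.0161 by edgeR). Each of the 4 libraries was needed for the call: the adjusted p was 0.0566 without mature replicate 1, 0.0779 without mature replicate 2, 0.611 without elderly replicate 1 and 0.605 without elderly replicate 2, and the last 2 fits called 0 genes of any kind although 1465 and 1627 genes had an unadjusted p under 0.05. The log2 fold change stayed between 0.99 and 1.59 in these fits.

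Gpd1, which makes glycerol 3-phosphate for the triglyceride backbone, differed by a similar factor at a much lower level. It had 31 and 30 counts in mature and 68 and 104 counts in elderly libraries, or 2.68 and 2.59 CPM and 6.13 and 6.77 CPM. The ages were well apart, but the log2 fold change of 1.29 (SE 0.37, unadjusted p = 0.00483) missed the threshold after adjustment (adjusted p = 0.123 by edgeR). Dgat1, the other acyltransferase of the last step, was at 53.8 and 53.4 CPM in mature and 78.5 and 69.4 CPM in elderly libraries. Its log2 fold change was 0.46 (SE 0.20, unadjusted p = 0.0392, adjusted p = 0.403 by edgeR), and only 19.8% of its counts fell on protein-coding transcripts, most of the rest on transcripts with a retained intron. The countable bases were 447 for the protein-coding Dgat1-001, 0 for the protein-coding Dgat1-008 and 515 for the retained-intron Dgat1-003, so this share depends on the counting. Agpat2, which adds the second fatty acid, went the other way, with 3.03 and 2.93 CPM in mature and 2.43 and 1.63 CPM in elderly libraries (log2 fold change -0.56, SE 0.48, adjusted p = 0.734 by edgeR). Lpin1, a phosphatidate phosphatase, overlapped between the ages and had 4.32% of its longest transcript countable. Pck1, which feeds glycerol synthesis from pyruvate, had 0 counts in all libraries with 716 bases (26.2%) countable. Summed over the 6 genes, the level was 94.8 and 90.5 CPM in mature and 183 and 141 CPM in elderly libraries.

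**Figure D3:**
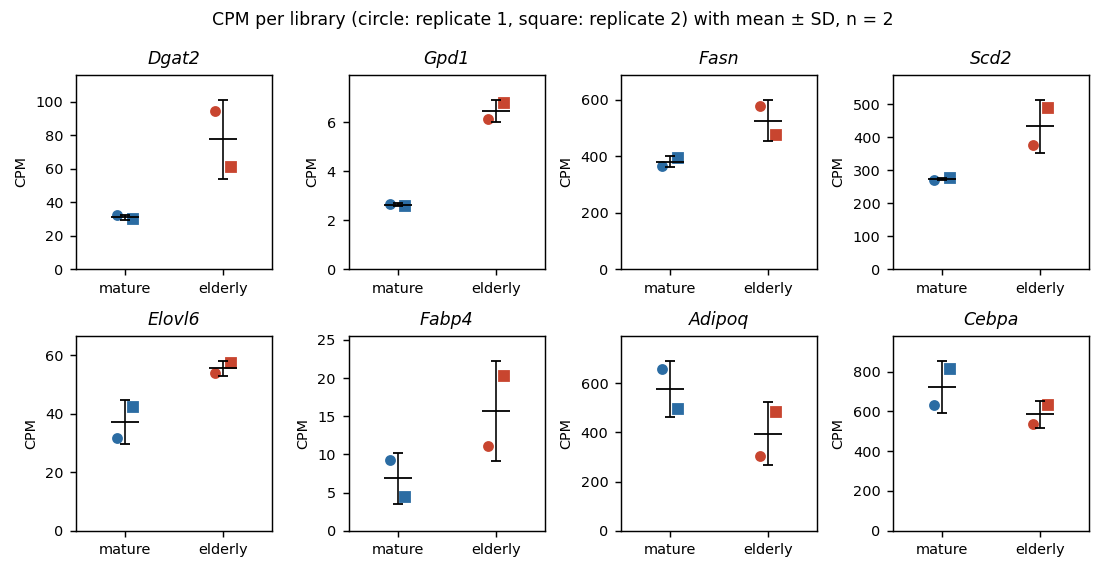
CPM of 8 genes in each library on linear axes from 0, with circles for replicate 1, squares for replicate 2 and black bars for the mean ± SD of 2 libraries. Dgat2, Gpd1, Fasn, Scd2, Elovl6 and Fabp4 have both elderly libraries above both mature libraries, Adipoq has both below, and Cebpa overlaps. The 8 genes were picked for display, and only Dgat2 passed the test. Of all 33 tested genes, 15 overlapped between the ages.

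Of the 7 genes of fatty acid synthesis, 4 had both elderly values above both mature values and 2 below, where 22% and 18.9% of all genes did, and none passed the test. Fasn, the fatty acid synthase, was at 367 and 395 CPM in mature and 578 and 475 CPM in elderly libraries. The ages did not overlap, with a log2 fold change of 0.47 (SE 0.19, unadjusted p = 0.0299, adjusted p = 0.351 by edgeR). Scd2, a stearoyl-CoA desaturase and the gene of this group with the highest level per length (65.5 CPM per kb of countable exon), was at 272 and 276 CPM in mature and 376 and 489.7 CPM in elderly libraries. The mature libraries nearly coincided and both elderly libraries were higher (log2 fold change 0.66, SE 0.20, unadjusted p = 0.00555, adjusted p = 0.134 by edgeR). Scd1, its neighbour on the chromosome and close relative, was at 225 and 273 CPM in mature and 243 and 232 CPM in elderly libraries, with overlap and a log2 fold change of -0.07 (SE 0.19) that turned to 0.35 with scaling by stromal markers. How reads that match both desaturases were assigned is not given in the sources used here. Elovl6, which elongates the product of fatty acid synthase, was at 31.8 and 42.5 CPM in mature and 53.8 and 57.3 CPM in elderly libraries. All 4 values were ordered by age, with a log2 fold change of 0.58 (SE 0.22, unadjusted p = 0.0237, adjusted p = 0.312 by edgeR).

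The enzymes that supply the pathway were measured less well. Acly, which makes cytosolic acetyl-CoA, was at 5.71 and 6.38 CPM in mature and 7.57 and 7.94 CPM in elderly libraries (log2 fold change 0.36, SE 0.32). Acaca, the acetyl-CoA carboxylase of the committed step, was at 3.20 and 2.84 CPM in mature and 2.79 and 1.56 CPM in elderly libraries, apart by a narrow margin (log2 fold change -0.49, SE 0.48). Me1, the malic enzyme that provides NADPH, had 15 and 11 counts in mature and 3 and 9 counts in elderly libraries (log2 fold change -1.34, SE 0.83, adjusted p = 0.646 by edgeR). For these 3 genes 11.2% to 19.0% of the longest transcript was countable. Summed over the 7 genes, the level was 905 and 997 CPM in mature and 1262 and 1263 CPM in elderly libraries. The adipokines summed to 659 and 497 CPM in mature and to 308 and 488 CPM in elderly libraries, which were lower. Nearly all of this sum was Adipoq, at 656 and 496 CPM in mature and 304 and 485 CPM in elderly libraries. Cfd and Retn had positive log2 fold changes (0.69 and 1.22), and none of these genes was called. The sums of the regulators and of the uptake and carriage, droplet coat and lipase genes overlapped between the ages. Over all roles together, the level was 2767.5 and 2984 CPM in mature and 2808 and 3131 CPM in elderly libraries, which overlapped.

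**Figure D4:**
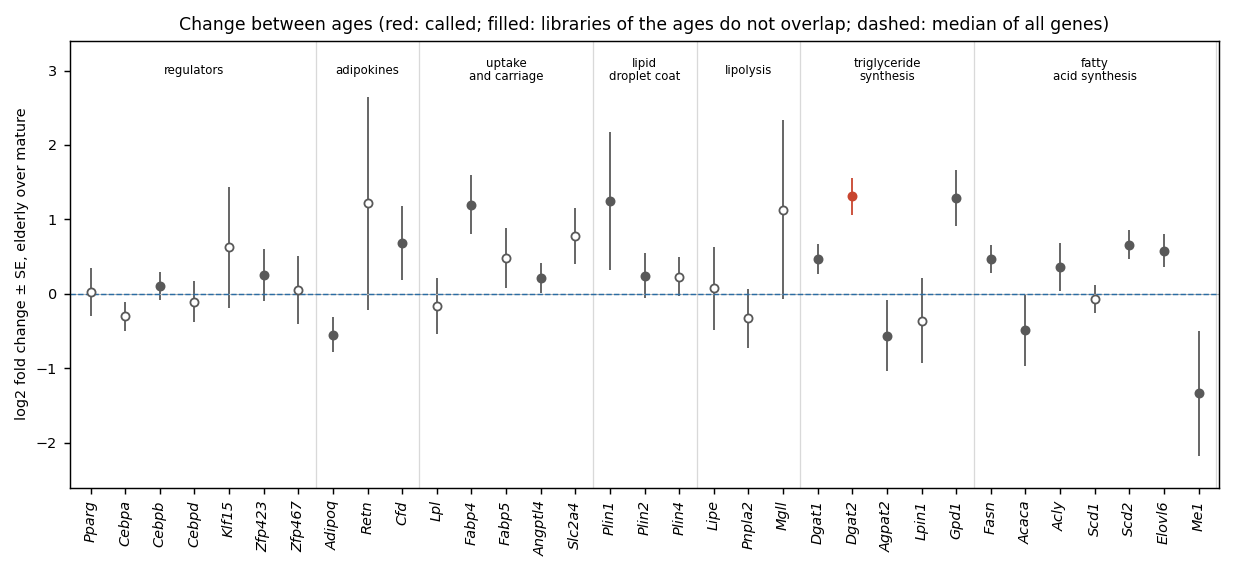
Log2 fold change (elderly over mature) ± SE of the 33 tested genes from edgeR's fit, grouped by role. The red point is Dgat2, filled points are genes whose libraries do not overlap between the ages, and the dashed line is the median of all genes at -0.0059.

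The scaling bears on all of these differences. With library size alone, Scd2 was called beside Dgat2. With scaling by the stromal markers, under which all genes shifted by a median of 0.41, 7 genes were called higher (Dgat2, Scd2, Fasn, Elovl6, Gpd1, Dgat1 and Fabp4) where 5.01% of all genes were, and Adipoq kept a negative log2 fold change of -0.17. The share of calls over all genes that were higher in elderly libraries was 82.1% as reported and 95.5% with this scaling.

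The promoters of Fasn and Elovl6 are shown as examples of genes that lay above the mature libraries in both elderly libraries. Other genes with that order, Acly and Plin1 among them, also had a window and are not printed. Each line gives the 250 bases before the start from RefSeq (GRCm38.p6), at chr11:120824548-120824797 on the minus strand for Fasn and chr3:129532136-129532385 on the plus strand for Elovl6. Capitals mark matches on either strand to CCAAT, the GC box GGGCGG, the E-box CACGTG, the sterol response element core TCACCCCAC, the nuclear receptor site AGGTCA or the C/EBP palindrome TTGCGCAA.
Fasn: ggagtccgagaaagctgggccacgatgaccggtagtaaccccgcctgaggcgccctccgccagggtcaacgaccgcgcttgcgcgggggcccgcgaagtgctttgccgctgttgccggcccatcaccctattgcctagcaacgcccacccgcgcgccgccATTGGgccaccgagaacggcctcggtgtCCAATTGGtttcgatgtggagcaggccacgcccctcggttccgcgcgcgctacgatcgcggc
Elovl6: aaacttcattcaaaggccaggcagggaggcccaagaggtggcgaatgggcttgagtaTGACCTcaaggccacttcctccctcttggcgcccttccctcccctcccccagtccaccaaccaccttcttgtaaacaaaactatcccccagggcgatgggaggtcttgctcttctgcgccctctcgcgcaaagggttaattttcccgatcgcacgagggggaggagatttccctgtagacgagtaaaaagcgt

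In Fasn the capitals are 3 matches to CCAAT, from positions -90 and -59 on the minus and -62 on the plus strand, the last 2 sharing bases. In Elovl6 they are 1 match to AGGTCA on the minus strand at -193. Among 33 windows of 26 of the 38 genes, 27.3% held CCAAT, where 33.8% of all 32817 windows did. For the other letters these shares were 48.5% and 32.7% for GGGCGG, 9.09% and 6.02% for CACGTG, 24.2% and 14% for AGGTCA, 3.03% and 0.165% for TTGCGCAA, the last from 1 window, that of Lep, and 0% and 0.497% for TCACCCCAC. A match describes letters and not a bound factor. Windows of Angptl4, Cebpd, Cidea, Dgat1, Dgat2, Fabp4, Fabp5, Gpd1, Lpl, Scd1, Scd2 and Slc2a4 were not analysed here.

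Other genes of the same pathways were listed with earlier results of these data known, 124 in all, of which 120 were tested. Of these, 3 were called higher (Insig1, Klf5 and Ucp2) and 1 lower (Stat5a), beside the 1.94% and 0.423% of all genes. The median log2 fold change was -0.01, and both elderly libraries were above both mature libraries for 36 genes and below for 28, where the shares over all genes were 22% and 18.9%. At an unadjusted p under 0.05 by edgeR, 8 genes had a positive and 10 a negative log2 fold change, beside 10.9% of all genes tested in either direction. Insig1, a membrane protein that retains the sterol-sensing complex controlling lipid synthesis genes and is itself a target of that control, had 1325 and 931 counts in mature and 3891 and 6547 counts in elderly libraries. These are 97.4 ± 24.3 CPM (SD, n = 2) and 388 ± 53.3 CPM (SD, n = 2), far apart (log2 fold change 2.00, SE 0.22, adjusted p = 0.00109 by edgeR). Klf5, an early activator of adipocyte differentiation, had 42 and 42 counts in mature and 117 and 186 counts in elderly libraries, and the ages were clearly separate (log2 fold change 1.64, SE 0.32, adjusted p = 0.0214 by edgeR). Ucp2, a mitochondrial carrier placed with fatty acid oxidation, had 296 and 194 counts in mature and 701 and 841 counts in elderly libraries (log2 fold change 1.48, SE 0.25, adjusted p = 0.0108 by edgeR). Stat5a, a cytokine-activated factor that favours adipogenesis, had 534 and 596 counts in mature and 306 and 311 counts in elderly libraries, lower in both (log2 fold change -1.03, SE 0.24, adjusted p = 0.0461 by edgeR). Without 1 elderly library, none of the 4 was called. Insig1 passed without either mature library, Ucp2 without mature replicate 1 only, and Klf5 and Stat5a in neither fit.

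By group, 2 of 34 tested other regulators were called higher and 1 lower, and 1 of 14 oxidation genes was higher. None of the 17 genes of uptake and activation, 15 of droplet and lipolysis, 11 of triglyceride synthesis, 16 of fatty acid synthesis and 13 of adipokines and receptors passed edgeR's test. In these 5 groups 3, 1, 1, 1 and 1 genes had an unadjusted p under 0.05 by edgeR, beside 10.9% of all genes tested. DESeq2 called G0s2, Fads1 and Apln higher among them, where it called 2.48% of all genes higher. Srebf1, the factor that activates Fasn and Scd genes, was at 9.34 and 8.71 CPM in mature and 14.4 and 7.61 CPM in elderly libraries, which overlapped (log2 fold change 0.28, SE 0.35, adjusted p = 0.863 by edgeR). It lies outside the rule for named genes and was chosen after its values were seen, as the activator of genes named above.

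The promoter of Insig1 is shown because the gene had the lowest p of the listed pathway genes. The line gives the 250 bases before its start at chr5:28071162-28071411 (RefSeq, GRCm38.p6, plus strand), with the same letters in capitals. It holds 3 GC boxes, at -229, -167 and -126, a CCAAT on the minus strand at -216, and an AGGTCA at -105 whose last 2 bases are the first of the E-box CACGTG at -101.
Insig1: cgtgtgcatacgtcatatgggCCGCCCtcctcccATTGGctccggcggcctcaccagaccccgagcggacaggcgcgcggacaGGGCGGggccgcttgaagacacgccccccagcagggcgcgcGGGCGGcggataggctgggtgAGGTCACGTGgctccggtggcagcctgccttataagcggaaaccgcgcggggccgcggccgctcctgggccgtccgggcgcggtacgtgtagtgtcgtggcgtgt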

How the data were processed

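RNA-seq libraries of marrow cells were grouped by the age in their labels, 2 per age. The labels give poly(A) RNA and a directional kit, whereas the methods except some samples, named by abbreviations, as total RNA. The authors removed adapters with CutAdapt, mapped reads with HISAT2 to mm9 and counted them with featureCounts, and the deposited values are raw counts per Ensembl transcript. The strand setting is not given in the sources used here. Of 95883 transcripts, 388 were not in GENCODE M1 (at most 0.0888% of counts), and the rest were summed per gene. All 25621 transcripts that share every exon base with another transcript of either strand had 0 counts, from which countable bases were derived.

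Genes with more than 2 counts in total (22214), the filter of the study, were scaled by TMM and compared with edgeR 4.0.16 (R 4.3.3), quasi-likelihood, 2-sided, Benjamini-Hochberg adjustment over all genes, biological coefficient of variation 0.265. The study used the exact test at a dispersion of 0.2, run here as an alternative with DESeq2 1.42.0, other filters, scalings, thresholds, prior counts, a replicate block and each library left out. The tests were run on simulated counts with known changes before use. An exact permutation test of 2 against 2 libraries cannot go below p = 0.333 and was not used. Libraries of an age differed beyond sampling noise (chi-square per degree of freedom 16.0 in mature and 34.2 in elderly).

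The genes and lists were chosen with earlier results of these data known. The naming rule took called genes, the gene of each role with the highest count per countable kilobase, the 6 largest log2 fold changes at a mean of 1 CPM or more, and genes not detected (3 counts or fewer in every library). Other members are given as group values and named with their counts so that every gene is accounted for. Promoters are RefSeq windows of GRCm38.p6, and motif letters were counted in the 250 bases before each start.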

Additional observations from a re-analysis of the deposited data

How the results depend on the processing

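Dgat2 stayed higher under every alternative run, with a log2 fold change of 0.99 to 1.76. Its call did not hold with the exact test at a dispersion of 0.2 (adjusted p = 0.676) or with any 1 library left out. A threshold of 2 on the absolute log2 fold change could not be met by its value of 1.31 and does not test the call. The number of the 38 genes called higher was 1 as reported, 0 with the exact test, 2 with the robust fit, 3 without a filter, 2 with library size alone, 7 with scaling by stromal markers, 0 at an absolute log2 fold change over 2, and 0 to 1 with 1 library left out (Fabp4 without mature replicate 1). No alternative called any of them lower. Of the other pathway genes, 3 were called higher as reported, 6 by DESeq2, 0 by the exact test, 6 by the robust fit, 6 without a filter, 6 with library size alone, 10 with stromal scaling, 5 among protein-coding genes only, 5 at an adjusted p under 0.1, 0 at a log2 fold change over 2 and 0 to 2 with 1 library left out. Those called lower numbered 1 as reported, 0 by the exact test, 2 without a filter, 0 with library size alone, 0 with stromal scaling, 0 at a log2 fold change over 2 and 0 to 1 with 1 library left out. Of the transcripts, 1 was called as reported, 0 by the exact test, 2 by the robust fit, 2 without a filter and 0 to 2 with 1 library left out. The count of genes below in both elderly libraries was 4, and 1 with stromal scaling, an alternative chosen after seeing the data under which 18 genes in place of 14 were above; over all genes this scaling put 41.2% above and 6.32% below, in place of 22% and 18.9%. Of the genes named by the rule, directions turned for Cebpa (0.10) and Pnpla2 (0.13) with stromal scaling, for Plin4 (-0.085) without elderly replicate 1, and for Pnpla2 without mature replicate 1 (0.10) and without elderly replicate 2 (0.04). Of the others, Cebpd (0.27), Lpl (0.20), Lpin1 (0.04) and Scd1 (0.35) turned with stromal scaling, these 4 and Pparg, Klf15, Zfp467, Fabp5 and Lipe with at least 1 choice of library left out, and Lipe with the replicate block. With 1 library left out the log2 fold change ranged from -0.085 to 0.52 for Plin4 and from -0.76 to 0.10 for Pnpla2. The cause of these changes was not tested. The sample titles give the replicate numbers no further meaning, and the deviations of same-numbered libraries correlated at 0.0354 over 15161 genes. A correlation over all genes cannot show whether part of the genes moved together. With a replicate block, 4 of the 38 genes (Dgat2, Scd2, Gpd1 and Fabp4), 7 other pathway genes higher and 3 lower, and 3 transcripts were called. Over all genes 430 were called higher and 94 lower as reported, 551 and 153 by DESeq2, 179 and 29 by the exact test, 691 and 188 by the robust fit, 866 and 218 without a filter, 1112 and 52 with stromal scaling, 962 and 314 with the block, and 0 without either elderly library. A fit without a library assumes that the lone library varies like those of the other age. Depth limits the genes under about 3 CPM, and the countable length limits 13 of the 38.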

Other observations

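Of the genes of lipid uptake and carriage, Lpl and Fabp5 were counted mainly on transcripts that do not encode the protein. For Lpl, 5.17% of the counts fell on protein-coding transcripts, and the retained-intron transcript Lpl-003 had 220 and 88 counts in mature and 87 and 231 counts in elderly libraries. For Fabp5 the share was 7.66%, and the retained-intron transcript Fabp5-002 had 109 and 39 counts in mature and 124 and 114 counts in elderly libraries. The countable bases were 66 for the protein-coding Lpl-001, 2078 for Lpl-003, 329 for the protein-coding Fabp5-001 and 2580 for Fabp5-002.

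The other pathway genes that follow missed the threshold, were chosen after their values were seen, and were all higher in elderly libraries. Of the 18 other pathway genes with an unadjusted p under 0.05 by edgeR, 10 had a negative log2 fold change. Apln, which encodes the peptide apelin, had 23 and 18 counts in mature and 108 and 67 counts in elderly libraries (log2 fold change 1.98, SE 0.47, adjusted p = 0.0520 by edgeR). G0s2, an inhibitor of the lipase encoded by Pnpla2, had 397 and 396 counts in mature and 588 and 1014 counts in elderly libraries (log2 fold change 0.80, SE 0.22, adjusted p = 0.0953 by edgeR). Fads1, a desaturase of polyunsaturated fatty acids, had 3491 and 3146 counts in mature and 4751 and 7361 counts in elderly libraries (log2 fold change 0.66, SE 0.19, adjusted p = 0.107 by edgeR).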
